A study of Mus musculus with 12 samples.

Results

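Glucose is broken down to pyruvate and lactate by the glycolytic enzymes, and many of the same genes are switched on by the hypoxia-inducible factors (HIF). The genes described here are 38 symbols chosen by name: glucose transporters, hexokinases, phosphofructokinases and their regulators, the other glycolytic enzymes, genes that set the fate of pyruvate and lactate, HIF subunits, HIF prolyl hydroxylases and a few hypoxia-inducible genes. The list follows names and functions, and was drawn up with earlier results of these data known. They matched 39 of the 55487 gene models of the count table, since *Aldoa* names a pair of models. Poly(A) RNA was sequenced from bone marrow-derived macrophages (BMDMs) of C57BL/6 mice aged 8 to 12 weeks, with 3 libraries in each of 4 groups and 12 in all. The groups were KO macrophages with LPS, WT macrophages with LPS, untreated KO macrophages and untreated WT macrophages. KO stands for the genotype Rasgef1b-fl/fl;CMVcre, in which Cre under the ubiquitous CMV promoter deletes exons 7 and 8 of *Rasgef1b*, so that reads of its other exons remain. WT stands for wildtype. LPS, the endotoxin of Gram-negative bacteria, was given at 100 ng/ml for 4 h, and macrophages of every group were grown from marrow in L929-conditioned medium. The labels call the libraries biological triplicates without naming animals, so p-values measure the spread between these libraries.

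RasGEF1b is a guanine nucleotide exchange factor of small GTPases whose gene is induced by Toll-like receptors in macrophages. Macrophages activated through Toll-like receptor 4 are known to shift their metabolism towards aerobic glycolysis, in which pyruvate is turned to lactate although oxygen is present. The HIF alpha subunits are hydroxylated by oxygen-dependent prolyl hydroxylases and then degraded, and when this stops they pair with ARNT and bind short motifs in glycolytic and other target genes. NF-κB is known to raise transcription of the gene for the HIF-1 alpha subunit in LPS-treated macrophages.

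The libraries held 19316691 to 24977356 reads in genes. *Rasgef1b* was counted at 3775, 4192 and 3618 in LPS-treated KO and 12554, 11855 and 11844 in LPS-treated WT macrophages, and at 695, 545 and 587 in untreated KO and 2171, 2001 and 2043 in untreated WT macrophages. Normalized counts are the unit throughout, that is reads divided by 1 size factor per library. All 12 macrophage markers averaged at least 10 in every group, as did 5 to 6 of 10 neutrophil, 1 of 8 T and NK cell, 2 of 6 B cell, 0 to 1 of 6 stromal, 0 of 6 erythroid and 1 to 5 of 8 dendritic cell markers. *Ly6g*, *Cd3e*, *Lum* and *Hba-a1*, which help to define neutrophils, T cells, stromal and erythroid cells, were at or near 0. Other markers of these lists were not, so single genes do not show that such cells were absent. Over all libraries the neutrophil list summed to 748 to 1695 and the T and NK cell list to 83.5 to 247 normalized counts. The B cell list summed to 217 to 1152 and the dendritic cell list to 2407 to 5757. Both replicate 1 libraries of WT and both replicate 2 libraries of KO macrophages held *Xist* reads, at 15146 to 18652 normalized counts against at most 28.7 elsewhere, with Y-linked genes summing to at most 10.5 there and to at least 3707 elsewhere. Untreated KO replicate 2 held 5.06% of its reads in one ribosomal RNA model, against 0.0399 to 0.0874% in the other libraries. The 39 gene models took 0.908 to 1.004% of the reads of LPS-treated KO, 0.981 to 1.05% of LPS-treated WT, 0.944 to 1.08% of untreated KO and 1.12 to 1.22% of untreated WT libraries. In untreated macrophages these ranges did not overlap between the genotypes, whereas they overlapped after LPS. Between treatments, the LPS range lay below the untreated range in WT macrophages, while the ranges overlapped in KO macrophages. The highest untreated KO share, 1.08%, was that of replicate 2, whose total includes its ribosomal RNA reads. Those reads lower its share, so the narrow gap to untreated WT macrophages depends on them.

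HIF binds a core of ACGTG or GCGTG, read on either strand, and the promoters of 5 genes are shown because the results below turn on them. *Slc2a6* and *Hk2* were higher after LPS, *Ankrd37* was lower, and *Ldha* and *Egln3* had every KO library below every WT library in both conditions. Each window is the 250 nt upstream of the annotated start, from RefSeq on GRCm38.p6, written 5′ to 3′ in the direction of transcription, with every core in capitals. The windows lie at chr2:27027999-27028248 (minus strand) for *Slc2a6*, chr6:82774455-82774704 (minus strand) for *Hk2*, chr7:46845554-46845803 (plus strand) for *Ldha*, chr8:45999851-46000100 (minus strand) for *Ankrd37* and chr12:54203875-54204124 (minus strand) for *Egln3*.
*Slc2a6*: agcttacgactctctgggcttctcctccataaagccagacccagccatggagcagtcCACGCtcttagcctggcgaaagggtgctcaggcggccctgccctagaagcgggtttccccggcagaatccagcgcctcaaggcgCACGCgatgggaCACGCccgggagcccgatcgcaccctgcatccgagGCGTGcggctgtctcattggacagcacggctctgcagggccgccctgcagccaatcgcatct
*Hk2*: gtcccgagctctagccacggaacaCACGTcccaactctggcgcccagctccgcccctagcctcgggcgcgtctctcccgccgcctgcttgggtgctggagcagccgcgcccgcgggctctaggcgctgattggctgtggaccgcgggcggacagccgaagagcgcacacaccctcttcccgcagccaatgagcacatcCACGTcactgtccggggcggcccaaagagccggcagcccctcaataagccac
*Ldha*: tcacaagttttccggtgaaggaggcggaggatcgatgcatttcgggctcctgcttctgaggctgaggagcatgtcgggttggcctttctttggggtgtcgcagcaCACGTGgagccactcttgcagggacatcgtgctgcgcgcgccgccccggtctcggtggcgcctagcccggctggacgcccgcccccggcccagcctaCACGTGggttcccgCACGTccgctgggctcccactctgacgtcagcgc
*Ankrd37*: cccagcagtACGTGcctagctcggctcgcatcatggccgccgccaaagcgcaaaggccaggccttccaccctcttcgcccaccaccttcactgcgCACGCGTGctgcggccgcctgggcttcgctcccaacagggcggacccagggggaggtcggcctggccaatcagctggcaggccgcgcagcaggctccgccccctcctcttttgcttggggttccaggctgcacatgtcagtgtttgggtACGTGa
*Egln3*: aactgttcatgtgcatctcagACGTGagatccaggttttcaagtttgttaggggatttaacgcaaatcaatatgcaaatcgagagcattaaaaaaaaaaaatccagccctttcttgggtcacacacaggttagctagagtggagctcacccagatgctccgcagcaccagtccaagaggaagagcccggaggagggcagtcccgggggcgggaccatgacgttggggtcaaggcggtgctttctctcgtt

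These windows hold 4 cores in *Slc2a6*, 2 in *Hk2*, 5 in *Ldha*, 4 in *Ankrd37* and 1 in *Egln3*. For *Ldha* the first of 2 annotated starts is shown. In it a pair of CACGTG hexamers, which is its own reverse complement, counts as a core on each strand. RefSeq promoters were found for 36 of the 38 symbols, with 50 windows in all since some genes have several starts, and *Epas1* and *Ndrg1* were not matched. Either core was present in 42 of the 50 windows (84.0%), against 38.6% of all 32851 promoter windows of the same length. Both cores hold a CG, the windows compared were not matched for base composition, and the list includes genes chosen as hypoxia-inducible. What these add to the difference was not tested. Of the 12 windows of the 10 genes called higher after LPS in both genotypes 11 held a core, and so did 11 of the 14 windows of the 12 genes with all KO libraries below all WT libraries in both conditions. CACGTG, which overlaps the ACGTG core and is also the E-box, was present in 12.0% of the windows, against 6.02% of all promoters. A narrow form of the NF-κB motif, searched on both strands, was in 0 of the 50 windows and in 0.718% of all promoters. Other forms of this motif were not searched. With so few matches among all promoters, 0 in 50 windows cannot show whether these promoters lack NF-κB motifs. A match describes these letters in this window only, and binding was not measured.

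The effect of LPS was compared within each genotype. LPS raised one glucose transporter, all 3 hexokinases, one phosphofructokinase, its activating enzyme *Pfkfb3*, a lactate transporter, *Pdk3*, *P4ha1* and *Hif1a* in KO and in WT macrophages, while the enzymes between aldolase and pyruvate kinase stayed within the called fold apart from *Eno2* in WT. A call required an adjusted p under 0.05 together with a log2 fold change of 1 or more in size. In KO macrophages 10 of the 38 genes tested were called higher and 4 lower, against 17.3% higher and 16.6% lower of all 12732 genes tested. In WT macrophages 10 were higher and 4 lower, against 17.1% and 16.9% of all 12656 genes. The shares among the 38 were 26.3% higher and 10.5% lower in either genotype, above the background for higher calls and below it for lower ones. The median log2 fold change was 0.22 in KO and 0.20 in WT macrophages, against -0.013 and -0.017 over all genes. Every LPS library lay above every untreated one for 18 of the 38 genes in KO (against 38.4% of all genes) and 20 in WT (against 38.3%), and below for 7 in KO (against 38.1%) and 8 in WT (against 38.6%). At the adjusted p alone, 18 were higher and 6 lower in KO (against 36.3% and 35.7% of all genes), and 19 higher and 9 lower in WT (against 36.7% and 36.6%). In bulk RNA, fewer cells expressing a gene and less RNA per cell cannot be told apart. LPS and untreated wells of a genotype carry paired numbers, and every library enters one LPS comparison and one genotype comparison, so these are not independent.

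**Figure D1:**
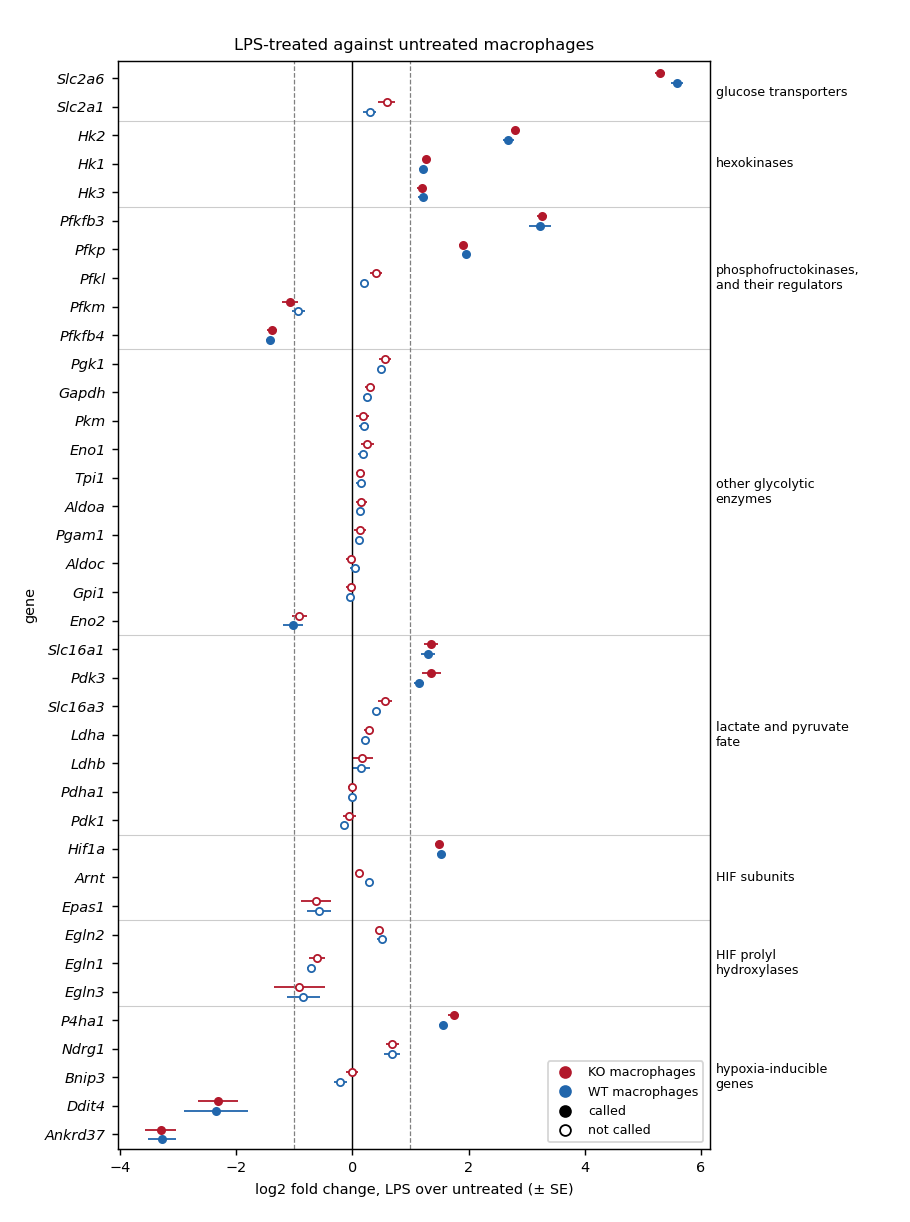
Log2 fold change of the 38 tested genes, LPS-treated over untreated, with its standard error, in KO (red) and WT macrophages (blue), grouped by role, with filled points for called genes and dashed lines at the called fold. The largest rise was that of *Slc2a6* (5.29 in KO and 5.59 in WT) and the largest fall that of *Ankrd37* (-3.30 and -3.27).

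The glucose transporters differed in size of response. *Slc2a6* was counted at 17959, 15828 and 18148 in LPS-treated KO macrophages, against 413, 495 and 417 in untreated KO macrophages. In WT macrophages the values were 15709, 16382 and 19116 after LPS, against 314, 348 and 401 without it. This transporter, which resides on lysosomes, was thus high in all 6 LPS libraries and low in all 6 untreated ones, with no overlap. Its log2 fold change was 5.29 ± 0.089 in KO (adjusted p = 1.02e-09) and 5.59 ± 0.10 in WT macrophages (adjusted p = 2.49e-10), or 39.2-fold and 48.1-fold. *Slc2a1*, the widespread transporter of basal glucose uptake, reached 1484, 2012 and 1748 in LPS-treated against 947, 1359 and 1173 in untreated KO macrophages, and 1626, 1687 and 2212 in LPS-treated against 1486, 1477 and 1487 in untreated WT macrophages. The LPS libraries lay above the untreated ones in both genotypes, but the log2 fold change of 0.60 ± 0.15 in KO (adjusted p = 0.00549) and 0.30 ± 0.11 in WT macrophages (adjusted p = 0.0289) stayed below the called fold, and its sign turned under library totals in both genotypes and in WT under upper quartile and quantile scaling too.

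The hexokinases, which trap glucose in the cell as glucose 6-phosphate, rose together. *Hk2* was counted at 5609, 5017 and 4855 in LPS-treated KO macrophages, against 739, 755 and 735 in untreated KO macrophages. In WT macrophages the values were 6619, 5791 and 5400.2 after LPS, against 1009.6, 899 and 851 without it. *Hk2*, the inducible isozyme, had the largest fold change of the 3, at 2.79 ± 0.068 in KO (adjusted p = 5.42e-09) and 2.69 ± 0.089 in WT macrophages (adjusted p = 7.12e-09). *Hk1*, the ubiquitous isozyme, averaged 5279 ± 249 after LPS against 2188 ± 15.6 in untreated KO macrophages, and 5173 ± 263 against 2229 ± 115 in WT macrophages (SD, n = 3 each). *Hk3*, known for its expression in myeloid cells, averaged 26269 ± 611 after LPS against 11523 ± 832 in untreated KO, and 27983 ± 476 after LPS against 12142 ± 1045 in untreated WT macrophages. Their log2 fold changes were close to each other, at 1.27 and 1.21 for *Hk1* and 1.19 and 1.21 for *Hk3* in KO and WT, with no overlap of groups. Both missed the called fold, without a change of sign, under each of the 3 other scalings.

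Phosphofructokinase commits glucose to glycolysis, and its subunits responded in different directions. *Pfkp*, the platelet-type subunit, averaged 10211 ± 639.6 after LPS against 2729.8 ± 122 in untreated KO, and 10567 ± 402 against 2728 ± 104 in WT macrophages. Its log2 fold change was 1.90 ± 0.068 in KO (adjusted p = 4.45e-08) and 1.95 ± 0.054 in WT macrophages (adjusted p = 2.49e-09), while 5.58% of its exons overlap the neighbouring gene *Pitrm1*, whose level was 20.8% of that of *Pfkp*. *Pfkm*, the muscle-type subunit, was counted at 206, 177 and 140.2 after LPS against 353, 389 and 344 in untreated KO, and at 191, 171 and 179 against 325, 318 and 394 in WT macrophages. All its LPS libraries were below all untreated ones, at -1.07 ± 0.14 in KO (adjusted p = 0.000149) and -0.93 ± 0.11 in WT macrophages (adjusted p = 4.65e-05). It was called in KO only, while the interaction of genotype and LPS was -0.14 ± 0.19 (adjusted p = 0.999), and the KO call was lost without LPS-treated replicate 3 (-0.92) and under quantile normalization (-0.86). Under upper quartile scaling and library totals *Pfkm* was called lower in WT too (-1.25 and -1.65). *Pfkl*, the liver-type subunit, changed by 0.41 ± 0.10 in KO (adjusted p = 0.00590) and 0.20 ± 0.060 in WT macrophages (adjusted p = 0.0127), under the called fold, and its sign turned in KO under library total scaling and in WT under all 3 other scalings.

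The bifunctional Pfkfb enzymes make and remove the sugar phosphate that activates phosphofructokinase. *Pfkfb3* was counted at 6253, 5445 and 6876 in LPS-treated KO macrophages, against 627, 670.4 and 630.1 in untreated KO macrophages. In WT macrophages the values were 6333, 6591 and 11104 after LPS, against 805, 780.2 and 886 without it. The LPS libraries were high in both genotypes, with WT replicate 3 above the rest. The log2 fold change of *Pfkfb3*, the isozyme with the strongest kinase activity, was 3.26 ± 0.087 in KO (adjusted p = 8.96e-09) and 3.23 ± 0.18 in WT macrophages (adjusted p = 2.68e-07). *Pfkfb4* moved the other way, to 348, 388 and 381 after LPS against 945, 924 and 1048 in untreated KO, and to 374, 341 and 341 against 945, 941 and 920.0 in WT macrophages. Its groups did not overlap, and its log2 fold change was -1.38 ± 0.080 in KO (adjusted p = 7.07e-07) and -1.41 ± 0.069 in WT macrophages (adjusted p = 9.27e-08).

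Most of the remaining glycolytic enzymes stayed within the called fold. Per kb of exon, *Aldoa*, which encodes an aldolase, had the highest level of the 39 gene models in every group, at 7566 ± 322 in LPS-treated KO, 8370.0 ± 369 in LPS-treated WT, 6828 ± 753 in untreated KO and 7604 ± 278 in untreated WT macrophages (normalized counts per kb, SD, n = 3). *Pkm*, the pyruvate kinase gene, came next in each group, at 7207 ± 543 per kb in LPS-treated KO, 7948 ± 673 in LPS-treated WT, 6397 ± 792 in untreated KO and 6938 ± 533 in untreated WT macrophages. The ranges of these neighbours overlapped in every group but untreated WT. The length here is the union of all annotated exons, 2911 nt for *Aldoa*, 5001 nt for *Pkm* and 4133 nt for *Gapdh*. Their longest coding transcripts have 1549, 2432 and 1420 nt, by which *Gapdh* would rank above both, so the order depends on the length used. The other gene model named *Aldoa* held 0 to 4.08 normalized counts in LPS-treated KO, 1.41 to 2.78 in LPS-treated WT, 8.55 to 12.7 in untreated KO and 8.76 to 10.6 in untreated WT macrophages, and passed the filter only between the untreated genotypes. Of the 10 enzymes only *Eno2*, the neuronal enolase, was called, and only in WT macrophages, at -0.91 ± 0.13 in KO (adjusted p = 0.000248) and -1.02 ± 0.17 in WT macrophages (adjusted p = 0.000526). Its counts were 186, 199 and 220.5 in LPS-treated against 317, 434 and 397 in untreated KO, and 209.7, 186 and 129 in LPS-treated against 383, 355 and 308 in untreated WT macrophages, so that both genotypes had every LPS library below every untreated one. The WT call was lost with DESeq2 (-0.99), a pseudocount of 5 (-0.998) and quantile normalization (-0.79), without untreated replicate 1 (-0.94), without untreated replicate 2 (-0.9998) and without LPS-treated replicate 3 (-0.81), and the KO value was called without untreated replicate 1 (-1.04), under upper quartile scaling (-1.23) and under library totals (-1.59).

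*Pgk1*, the first ATP-yielding kinase of the pathway, averaged 14846 ± 941 after LPS against 10144 ± 1355 in untreated KO, and 17547 ± 119 against 12484 ± 475 in WT macrophages. Its log2 fold change was 0.56 ± 0.10 in KO (adjusted p = 0.00111) and 0.49 ± 0.053 in WT macrophages (adjusted p = 2.29e-05). *Gapdh* changed by 0.31 ± 0.088 in KO (adjusted p = 0.0123) and 0.25 ± 0.065 in WT macrophages (adjusted p = 0.00685), where 80 near-identical copies together held reads worth 0.407% of its level. Both were past the adjusted p and below the called fold, and their signs turned under quantile normalization and library totals, for *Gapdh* also under upper quartile scaling. *Aldoa*, *Tpi1*, *Pgam1*, *Eno1* and *Pkm* had log2 fold changes of 0.11 to 0.25 with adjusted p of 0.0527 to 0.267, and all 5 turned negative under each of the 3 other scalings. With the replicate block, which pairs LPS and untreated wells of a genotype, the 5 passed the adjusted p in both genotypes (0.00282 to 0.0370), still below the called fold. *Gpi1*, which isomerizes glucose 6-phosphate, was at -0.030 in KO and -0.046 in WT, and *Aldoc*, another aldolase, at -0.028 and 0.054, none past the test, although *Gpi1* was called lower under quantile normalization in KO (-1.001) and in WT (-1.03). A gene that overlaps *Pkm* and a near-identical copy of it together held 2.29% of its level.

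The summed normalized count of a library was 25980274 to 27713125.3 in LPS-treated against 16361938.2 to 17384974.5 in untreated KO macrophages. In WT macrophages it was 26950746.5 to 28238994.2 after LPS against 16487345.8 to 16778143 without it. The scalings named above differ in how they treat this sum. They moved the median of all genes by -0.32 under upper quartile scaling, -0.14 under quantile normalization and -0.68 under library totals in KO, and by -0.32, -0.13 and -0.72 in WT macrophages. Relative to the median of all genes, the median of the 38 was 0.23 higher in KO and 0.22 higher in WT macrophages with the deposited values, 0.23 and 0.21 under upper quartile scaling, 0.23 and 0.21 under library totals, and 0.13 and 0.14 lower under quantile normalization. None of the 10 genes called higher in both genotypes turned its sign under these scalings, although 8, 7 and 5 of them in KO and 6, 6 and 4 in WT stayed past the called fold under upper quartile, quantile and library total scaling.

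Among the genes of lactate and pyruvate, the transporter *Slc16a1* and the kinase *Pdk3* rose. *Slc16a1*, which carries lactate across the plasma membrane, was counted at 897, 667 and 679 after LPS against 284, 305 and 278 in untreated KO, and 730.4, 726 and 721 against 332, 323 and 236 in WT macrophages. Its log2 fold change was 1.36 ± 0.12 in KO (adjusted p = 1.07e-05) and 1.30 ± 0.12 in WT macrophages (adjusted p = 1.02e-05). *Pdk3*, one of the kinases that switch off pyruvate dehydrogenase, reached 815, 496 and 592 after LPS against 237, 246 and 239.9 in untreated KO, and 564, 561 and 669 after LPS against 268, 281 and 256 in untreated WT macrophages. The LPS libraries of both genes stood above the untreated ones, with KO replicate 1 the highest in each case, and *Pdk3* changed by 1.36 ± 0.16 in KO (adjusted p = 7.20e-05) and 1.15 ± 0.092 in WT macrophages (adjusted p = 3.07e-06). *Slc16a3*, the lactate exporter of glycolytic cells, changed by 0.57 ± 0.12 in KO (adjusted p = 0.00232) and 0.41 ± 0.058 in WT macrophages (adjusted p = 0.000157), and *Ldha*, which makes lactate, by 0.28 ± 0.083 in KO (adjusted p = 0.0144) and 0.22 ± 0.073 in WT macrophages (adjusted p = 0.0237). Both missed the called fold. Under library totals both turned negative in both genotypes, *Ldha* also under the other scalings and *Slc16a3* in WT under quantile normalization. *Pdk1* (-0.054 and -0.14), *Ldhb* (0.17 and 0.15) and *Pdha1*, which encodes a catalytic subunit of pyruvate dehydrogenase (-0.0090 and -0.0080), had values closer to 0 in KO and WT, and only *Pdk1* in WT passed the adjusted p (0.0318). A pseudogene copy of *Ldhb* held 5.11% of its level, and *Map3k15*, which overlaps *Pdha1*, 8.16% of that of *Pdha1*.

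The HIF subunits did not move together. *Hif1a* was counted at 4237, 4579 and 4392 in LPS-treated KO macrophages, against 1639, 1635 and 1440.0 in untreated KO macrophages. In WT macrophages the values were 4556, 4217 and 4383 after LPS, against 1579, 1526 and 1480.0 without it. The gene of the HIF-1 alpha subunit was higher in every LPS library, at 1.49 ± 0.070 in KO (adjusted p = 1.98e-07) and 1.52 ± 0.054 in WT macrophages (adjusted p = 1.15e-08). *Epas1*, the gene of the HIF-2 alpha subunit, was at 25.4, 18.3 and 32.7 after LPS against 33.2, 40.2 and 43.7 in untreated KO, and 31.0, 45.0 and 32.0 against 47.1, 57.4 and 55.8 in WT macrophages. It was lower in every LPS library, with log2 fold changes of -0.62 ± 0.26 in KO (adjusted p = 0.0580) and -0.57 ± 0.21 in WT macrophages (adjusted p = 0.0330), of which only that in WT passed the adjusted p, while with the replicate block that of *Epas1* in KO passed too (adjusted p = 0.0495). *Arnt*, the constitutive partner, had log2 fold changes of 0.12 ± 0.066 in KO (adjusted p = 0.129) and 0.29 ± 0.070 in WT macrophages (adjusted p = 0.00431), and turned negative under the 3 other scalings in both genotypes. The prolyl hydroxylase genes split as well. *Egln1*, the main oxygen sensor, had log2 fold changes of -0.60 ± 0.13 in KO (adjusted p = 0.00315) and -0.71 ± 0.069 in WT macrophages (adjusted p = 1.10e-05), lower in every LPS library, and *Egln2* of 0.47 ± 0.064 in KO (adjusted p = 0.000177) and 0.51 ± 0.084 in WT macrophages (adjusted p = 0.000414), higher in every LPS library but negative under library totals. *Egln3*, with 5 to 31 reads in each LPS library, had values of -0.91 ± 0.43 in KO (adjusted p = 0.0882) and -0.84 ± 0.29 in WT macrophages (adjusted p = 0.0266), and its LPS and untreated libraries overlapped in both genotypes.

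Of the 5 hypoxia-inducible genes, 1 was called higher and 2 lower in each genotype. *P4ha1* was counted at 5379, 5412 and 5301 in LPS-treated KO macrophages, against 1432, 1862 and 1539 in untreated KO macrophages. In WT macrophages the values were 5452, 5579 and 6147 after LPS, against 2022, 1894 and 1919 without it. *P4ha1*, the catalytic subunit of collagen prolyl hydroxylase, was higher in every LPS library, by 1.74 ± 0.093 in KO (adjusted p = 4.35e-07) and 1.56 ± 0.061 in WT macrophages (adjusted p = 2.07e-08). *Ankrd37* was counted at 12.1, 13.1 and 19.1 in LPS-treated KO macrophages, against 107, 178 and 180.4 in untreated KO macrophages. In WT macrophages the values were 36.6, 20.5 and 30.6 after LPS, against 244, 253 and 370.4 without it. *Ankrd37*, a gene of an ankyrin-repeat protein, was low in all LPS libraries, with log2 fold changes of -3.30 ± 0.27 in KO (adjusted p = 6.04e-06) and -3.27 ± 0.24 in WT macrophages (adjusted p = 1.55e-06), and 26.4% of its exons overlap neighbouring genes, which reads of a library without strand cannot tell apart. *Ddit4*, an inhibitor of mTORC1 signalling, was at 15.7, 6.54 and 12.2 after LPS against 76.9, 46.2 and 55.1 in untreated KO, and at 12.7, 6.82 and 43.1 after LPS against 65.7, 80.5 and 113 in untreated WT macrophages. The groups did not overlap, at -2.32 ± 0.35 in KO (adjusted p = 0.000311) and -2.35 ± 0.54 in WT macrophages (adjusted p = 0.00347), though WT LPS replicate 3 was far above its group. *Ndrg1*, a stress-responsive gene, changed by 0.69 ± 0.12 in KO (adjusted p = 0.000771) and 0.69 ± 0.14 in WT macrophages (adjusted p = 0.00139), with WT at -0.039 under library totals. *Bnip3*, a receptor for mitophagy with 22.3% of its exons in an overlapping gene, did not pass the test (-0.011 in KO and -0.21 in WT), except in WT with the replicate block (adjusted p = 0.0174).

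**Figure D2:**
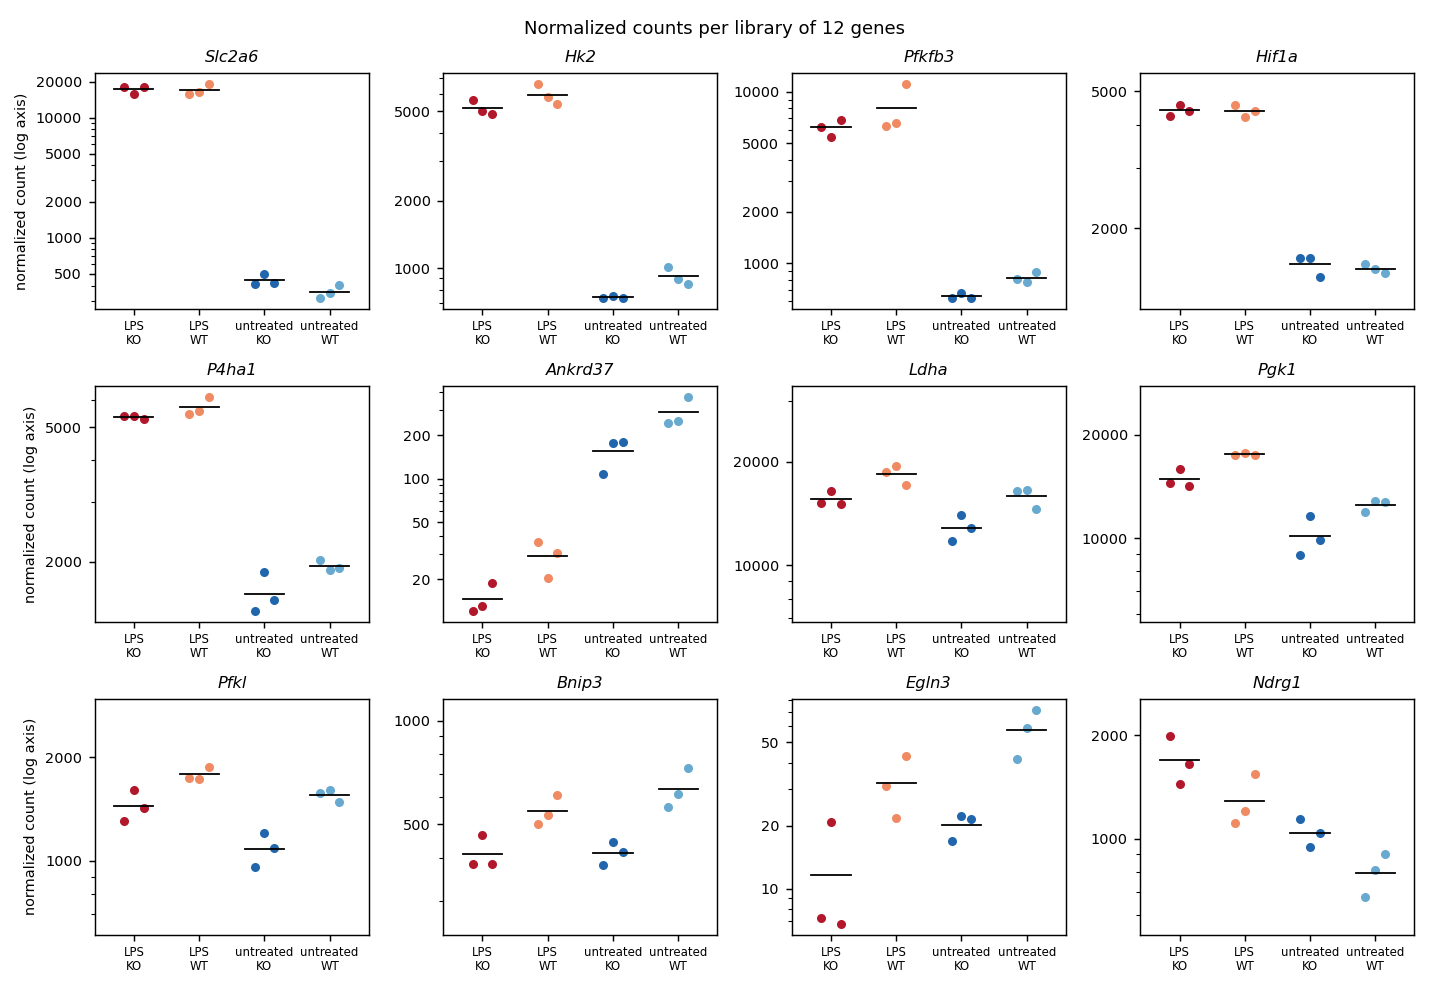
Normalized counts of 12 genes in each library (y axis, log scale) by group, with LPS-treated KO, LPS-treated WT, untreated KO and untreated WT macrophages from left to right and a line at each group mean. *Slc2a6* lay at 15828 to 18148 in LPS-treated against 413 to 495 in untreated KO macrophages, while *Bnip3* and *Ldha* separated KO from WT in both conditions.

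Shares within a group of isozymes are not moved by a single scale factor per library, which quantile normalization is not. Of 11 such groups 8 were pairs, in which one share mirrors the other. In 9 of the 11 at least 1 isozyme had shares that did not overlap between LPS-treated and untreated libraries, in the same direction in both genotypes (counts per exon length). *Slc2a6* took 91.5 ± 1.74% of the summed level of *Slc2a1* and *Slc2a6* in LPS-treated against 29.6 ± 2.33% in untreated KO, and 91.0 ± 0.546% against 20.6 ± 2.00% in WT macrophages (SD, n = 3). Other expressed glucose transporters were not in this share, such as *Slc2a8*, *Slc2a9* and *Slc2a3*, at means of 506, 467 and 203 normalized counts in untreated KO macrophages, where *Slc2a6* averaged 442. *Pfkfb3* took 91.4 ± 1.17% of the pair of *Pfkfb3* and *Pfkfb4* after LPS against 29.9 ± 1.96% in untreated KO, and 93.2 ± 2.01% against 36.2 ± 1.84% in untreated WT macrophages. In both pairs the isozyme with the larger share thus changed with LPS. Among the phosphofructokinases *Pfkp* held 73.9 ± 1.97% against 43.0 ± 2.28% in untreated KO, and 71.0 ± 0.230% against 37.7 ± 1.14% in untreated WT macrophages. The exon union of *Pfkp* is 13401 nt and its longest coding transcript 4145 nt, against 6675 and 3730 nt for *Pfkl* and 3340 and 2879 nt for *Pfkm*. The size of its share therefore depends on the length used, and its untreated share would be larger by coding transcripts. *Pdk3* held 48.9 ± 8.26% of the pair of *Pdk1* and *Pdk3* against 26.4 ± 2.38% in untreated KO, and 44.3 ± 2.73% against 24.6 ± 0.434% in untreated WT macrophages. *Pfkfb2* and *Pdk2*, which were called lower after LPS as given below, were not in the shares of *Pfkfb3* and *Pdk3*. The hexokinases changed share without changing order, since *Hk3* kept 82.8 ± 0.793% against 89.1 ± 0.744% in untreated KO and 82.6 ± 0.886% against 88.8 ± 0.396% in untreated WT macrophages. *Hk2* went up in share beside it, to 10.0 ± 0.591% against 3.56 ± 0.219% in untreated KO and 10.8 ± 1.16% against 4.15 ± 0.215% in untreated WT macrophages.

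**Figure D3:**
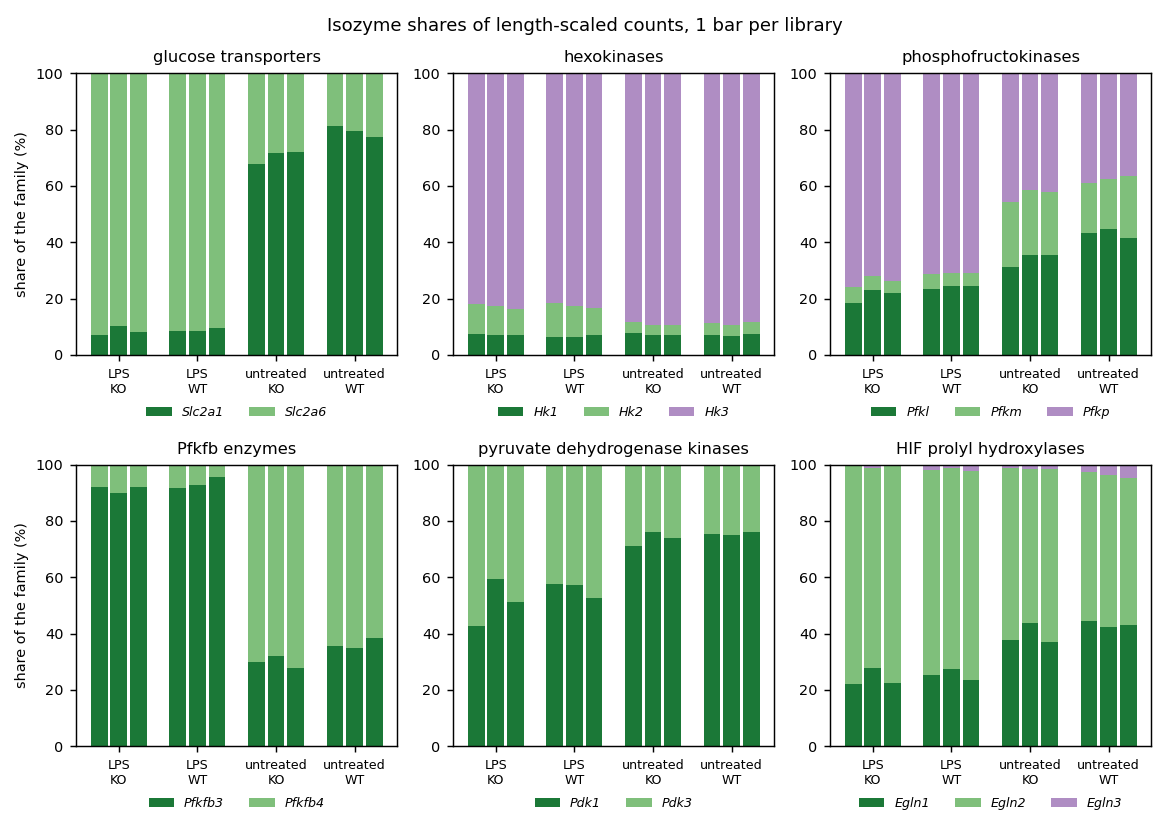
Share of each isozyme in the length-scaled counts of the isozymes drawn with it (y axis, percent), with 1 bar per library in LPS-treated KO, LPS-treated WT, untreated KO and untreated WT macrophages. *Slc2a6* filled 89.6 to 93.0% of its pair with *Slc2a1* in LPS-treated KO against 28.0 to 32.2% in untreated KO macrophages, and *Pfkfb3* and *Pfkp* also gained share.

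Neighbouring gene lists were counted in the same fits, in which 17.3% of all genes were called higher and 16.6% lower in KO, and 17.1% higher and 16.9% lower in WT macrophages. Of 13 regulators of the HIF pathway tested, 2 were called higher and 0 lower in each genotype. These were *Cited2*, which competes with HIF for its coactivators (3.34 in KO and 3.38 in WT), and *Cul2*, the scaffold of the ubiquitin ligase that degrades HIF alpha (1.88 and 1.84). Of other HIF targets 7 were higher and 9 lower, of 30 tested in KO and 32 in WT macrophages. Those higher included *Nos2*, the inducible nitric oxide synthase (10.49 and 11.47) and *Lox*, the collagen cross-linking oxidase (5.01 and 4.89). *Lox*, *Bhlhe41* and *Vegfa* were named after their values were seen. *Lox* held 0 to 4 reads in each untreated library, so that its fold depends on the pseudocount. The lowest were *Zfp395* (-5.06 and -5.24), the transcription repressor *Bhlhe41* (-3.83 and -4.16) and *Vegfa*, the angiogenic growth factor (-3.98 and -3.99). Targets of HIF thus included genes with strong changes in both directions.

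Of other glycolysis genes, 1 was higher and 2 lower of 13 in KO, and 1 higher and 3 lower of 14 in WT macrophages. They were *Minpp1* (1.79 and 1.75), *Pfkfb2* (-2.25 and -2.42), the transporter *Slc2a3* (-1.78 and -1.80) and, in WT, *Gapdhs* (-1.39), the last named after its value was seen. Among 20 genes of pyruvate and lactate handling none was higher by limma, while 3 were lower in KO and 2 in WT, led by *Pdk2*, another pyruvate dehydrogenase kinase (-1.84 and -1.65), and including *Pdpr* in both (-1.0005 and -1.07) and *Pdp1* in KO (-1.09). At the adjusted p alone 7 of these genes were higher in KO and 5 in WT, against 36.3% and 36.7% of all genes. In the pentose phosphate pathway *Rpe* (1.32 and 1.13) was higher and *Shpk*, the sedoheptulose kinase (-2.08 and -1.68), lower, of 11 genes. Of 16 glycogen genes 3 were lower in each genotype, with *Ppp1r3b* (-1.61 and -1.55) and *Phka1* (-1.49 and -1.20) among them, and *Pygm*, the muscle phosphorylase, was higher in KO (1.47).

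KO and WT macrophages were compared within each condition. The paper names an animal facility of UFMG as the source of WT mice, and its knock-out line was generated at UMMS with CMV-Cre mice. Littermate controls are not described, and what colony or Cre background adds to these differences was not tested. Most glycolytic and hypoxia-inducible genes had lower means in KO than in WT macrophages, by small amounts, and few single genes passed the test by limma. In LPS-treated macrophages 0 of the 38 genes were called by limma, edgeR or DESeq2, against 0.232% of all 12504 genes by limma, and at an unadjusted p under 0.05 there were 15 by limma (39.5%, against 10.6% of all genes) and 16 by either other tool. In untreated macrophages 1 of 39 was called, lower in KO, against 0.0963% of all 12461 genes called lower, and 2 passed at an adjusted p under 0.05 alone, both lower in KO, against 0.281% of all genes lower. At that adjusted p DESeq2 gave 10 of the 39 (against 2.62% of all genes), edgeR 0 (against 0.449%) and limma with the replicate block 6 (against 1.70%). Replicate numbers do not pair the libraries of the genotypes, with r of -0.0282, -0.0381 and 0.241 between untreated libraries of the same number, so the block is not a matched design here. At an unadjusted p under 0.05 there were 21 of 39 (53.8%), against 10.8% of all genes. The fold change was below 0 for 27 of 38 genes after LPS, against 50.4% of all genes, and for 28 of 39 untreated, against 53.4%. The medians were -0.14 after LPS and -0.16 untreated, against -0.0015 and -0.0095 over all genes.

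Every KO library lay below every WT library for 15 of the 38 genes after LPS (39.5%, against 7.73% of all genes), and for 17 of the 39 untreated (43.6%, against 7.98%). The opposite held for 2 genes after LPS (5.26%, against 8.35%) and 3 untreated (7.69%, against 8.41%). The 12 genes below in both conditions were *Gpi1*, *Pfkl*, *Tpi1*, *Gapdh*, *Pgk1*, *Ldha*, *Pdk1*, *Slc16a3*, *Egln3*, *Bnip3*, *Ankrd37* and *P4ha1*. Library scaling moved these counts. Under upper quartile, quantile and library total scaling the genes below numbered 10, 7 and 9 after LPS (against 6.58%, 7.85% and 5.74% of all genes) and 14, 18 and 20 untreated (against 6.30%, 7.33% and 8.32%). Without both *Xist*-bearing replicates, a choice made after seeing the data, they numbered 19 after LPS and 22 untreated, with 17.8% and 18.0% of all genes below in these sets of 2 against 2.

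Marker levels differed with genotype as well. The 12 macrophage markers summed to 326654 to 394428 normalized counts in LPS-treated KO and 396379 to 450174 in LPS-treated WT macrophages, and to 251301 to 306939 in untreated KO and 296326 to 362161 in untreated WT macrophages, apart after LPS and overlapping untreated. The largest part was *Lyz2*, with a log2 fold change of -0.33 ± 0.14 after LPS (adjusted p = 0.452) and -0.36 ± 0.16 untreated (adjusted p = 0.462), and 10 and 9 of the 12 markers had fold changes below 0. The 8 T and NK cell markers, nearly all *Cd4*, summed to 83.5 to 101 in LPS-treated KO and 151 to 175 in LPS-treated WT macrophages, and to 107 to 144 in untreated KO and 169 to 247 in untreated WT macrophages. Neutrophil, B cell, stromal, erythroid and dendritic cell markers overlapped between the genotypes in both conditions, at 748 to 1695, 217 to 1152, 9.56 to 56.8, 0 to 6.84 and 2407 to 5757. The part of these differences, of the *Xist*-bearing libraries and of the ribosomal RNA share of untreated KO replicate 2 in the results was not tested.

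**Figure D4:**
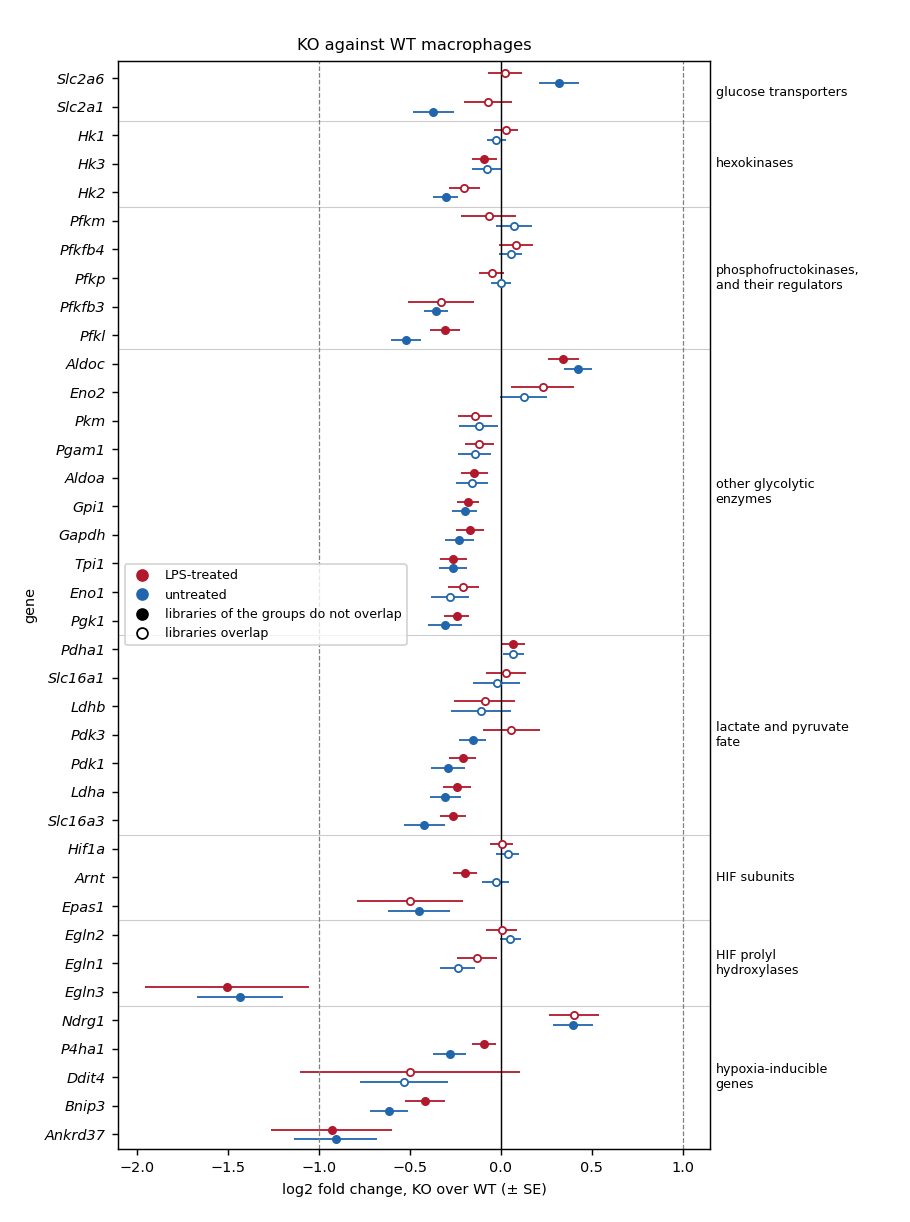
Log2 fold change of the 38 genes, KO over WT, with its standard error, in LPS-treated (red) and untreated macrophages (blue), grouped by role, with filled points where the 3 libraries of each genotype do not overlap and dashed lines at the called fold. Most points lie left of 0, with *Egln3* (-1.50 after LPS and -1.43 untreated) and *Ankrd37* (-0.93 and -0.91) the farthest.

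Among the glycolytic enzymes the differences were small. *Pfkl* was counted at 1308, 1607 and 1421 in LPS-treated KO and 1741, 1733 and 1877 in LPS-treated WT macrophages, and at 961, 1202 and 1092 in untreated KO and 1570.1, 1606 and 1478 in untreated WT macrophages. All KO libraries lay below all WT ones in both conditions, with log2 fold changes of -0.31 ± 0.084 after LPS (adjusted p = 0.176) and -0.52 ± 0.083 untreated (adjusted p = 0.0427), of which that of untreated macrophages was past the adjusted p but not the called fold. The adjusted p of *Pfkl* there was 0.0530 to 0.178 under upper quartile scaling, quantile normalization, a filter at a mean of 50, no variance trend, edgeR and without the *Xist*-bearing libraries, and 0.0722 to 0.173 without untreated WT replicate 1, 2 or 3 or untreated KO replicate 3. *Ldha* was at 15186, 16404 and 15100.1 in LPS-treated KO and 18719.8, 19364 and 17101 in LPS-treated WT, and at 11732, 13999.7 and 12797 in untreated KO and 16464, 16537 and 14538 in untreated WT macrophages. Its difference was -0.24 ± 0.075 after LPS and -0.30 ± 0.084 untreated, without overlap in either condition. *Pgk1* differed by -0.24 ± 0.070 and -0.31 ± 0.093, *Tpi1* by -0.26 ± 0.073 and -0.26 ± 0.077, *Gapdh* by -0.17 ± 0.076 and -0.23 ± 0.081, and *Gpi1* by -0.18 ± 0.062 and -0.20 ± 0.068, after LPS and untreated, with adjusted p of 0.192 to 0.476. *Eno1* (-0.21 and -0.28), *Pkm* (-0.14 and -0.12) and *Pgam1* (-0.12 and -0.14) had lower KO means with overlapping libraries, and so did *Aldoa* untreated (-0.16), whose LPS libraries lay apart (-0.15). None of the signs of these differences turned under the other scalings.

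The upstream steps varied more. *Hk2* was at 739, 755 and 735 in untreated KO and 1009.6, 899 and 851 in untreated WT macrophages, apart by -0.30 ± 0.071 (adjusted p = 0.128), while after LPS the libraries overlapped (-0.20 ± 0.087). *Pfkfb3* was at 627, 670.4 and 630.1 in untreated KO and 805, 780.2 and 886 in untreated WT macrophages, apart by -0.36 ± 0.067 (adjusted p = 0.0730), and overlapped after LPS (-0.33 ± 0.18). *Slc2a1* lay below WT in every untreated KO library (-0.37 ± 0.11, adjusted p = 0.251), whereas *Slc2a6* lay above, at 413, 495 and 417 in untreated KO and 314, 348 and 401 in untreated WT macrophages (0.32 ± 0.11, adjusted p = 0.311). Both transporters thus separated the untreated genotypes in opposite directions, and *Slc2a6* held 28.0 to 32.2% of their summed level in untreated KO and 18.8 to 22.7% in untreated WT macrophages. After LPS neither was apart (-0.072 and 0.023). *Hk1*, *Pfkm*, *Pfkp* and *Pfkfb4* overlapped in both conditions, with differences of -0.067 to 0.081, and *Hk3* was apart only after LPS (-0.091).

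For pyruvate and lactate, *Slc16a3* was at 1991, 2173 and 1858 in LPS-treated KO and 2412, 2409 and 2395 in LPS-treated WT, and at 1154, 1613 and 1328 in untreated KO and 1788, 1933 and 1712 in untreated WT macrophages. The KO libraries lay below the WT ones, which were close together after LPS, with log2 fold changes of -0.26 ± 0.071 after LPS (adjusted p = 0.168) and -0.42 ± 0.11 untreated (adjusted p = 0.180). *Pdk1* differed by -0.21 ± 0.075 after LPS and -0.29 ± 0.093 untreated, without overlap. *Pdk3* was apart untreated (-0.16) and not after LPS (0.058), *Pdha1* lay slightly above WT after LPS (0.068), and *Slc16a1* and *Ldhb* overlapped in both conditions.

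The HIF alpha gene did not separate the genotypes, since *Hif1a* differed by 0.0057 ± 0.063 after LPS (95% interval -0.13 to 0.15) and 0.038 ± 0.064 untreated (-0.11 to 0.19). *Arnt* was apart after LPS only, at 1202, 1216 and 1169 in KO and 1348, 1340.1 and 1423 in WT macrophages (-0.20 ± 0.065, adjusted p = 0.287). *Epas1* lay below WT in every untreated KO library (-0.45, adjusted p = 0.389) and overlapped after LPS (-0.50). Among the prolyl hydroxylases *Egln1* and *Egln2* overlapped in both conditions, and *Egln3*, itself a HIF target, lay below WT in every KO library. Its reads, as recovered from the normalized counts, were 6, 16 and 5 in LPS-treated KO and 22, 16 and 31 in LPS-treated WT, and 24, 26 and 30 in untreated KO and 60, 89 and 90 in untreated WT libraries. After LPS the difference was -1.50 ± 0.45 (adjusted p = 0.222), with KO replicate 2 close to WT replicate 2, at 20.9 and 21.8 normalized counts. Untreated, *Egln3* was the called gene (adjusted p = 0.0465), and the call was lost when any 1 of the 6 libraries was left out, under upper quartile and library total scaling, and by edgeR. It was also lost with all 12 libraries in one fit, with no variance trend and without the *Xist*-bearing libraries. The paper, which used DESeq2, lists *Egln3* among the genes lower in untreated KO macrophages.

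Of the hypoxia-inducible genes, *Bnip3* was at 382, 465 and 384 in LPS-treated KO and 501, 532 and 609 in LPS-treated WT, and at 379.5, 443 and 416 in untreated KO and 562, 612 and 729 in untreated WT macrophages. All KO libraries lay below the WT ones, at -0.42 ± 0.11 after LPS (adjusted p = 0.159) and -0.61 ± 0.10 untreated (adjusted p = 0.0524). *Ankrd37*, whose counts per library are given above, lay below WT too, at -0.93 ± 0.33 after LPS (adjusted p = 0.335) and -0.91 ± 0.23 untreated (adjusted p = 0.153), again without overlap. *P4ha1* differed less, by -0.092 after LPS and -0.28 untreated, and *Ddit4* overlapped in both conditions. Against this direction, *Ndrg1* was at 1987, 1438 and 1649.7 in LPS-treated KO and 1108, 1201 and 1539.9 in LPS-treated WT, and at 1138, 946 and 1040.4 in untreated KO and 675, 809 and 901 in untreated WT macrophages. It was above WT in every untreated KO library (0.40 ± 0.11, adjusted p = 0.202) and overlapped after LPS (0.40 ± 0.14). *Aldoc* lay above WT in all KO libraries in both conditions, at 917, 819 and 814 in LPS-treated KO and 701, 692 and 618 in LPS-treated WT, and 832, 904 and 860.0 in untreated KO and 629, 711 and 599 in untreated WT macrophages. The difference was 0.34 ± 0.085 after LPS (adjusted p = 0.126) and 0.42 ± 0.075 untreated (adjusted p = 0.0585).

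In the other lists none of the genes was called between the genotypes in either condition by limma. Other HIF targets had 9 of 31 genes with every KO library below every WT library after LPS (against 7.73% of all genes), and 12 of 30 untreated (against 7.98%). Every KO library lay above every WT library for 2 of these genes after LPS (against 8.35%) and 4 untreated (against 8.41%). At the adjusted p alone, *Hmox1*, the heme oxygenase, was lower in KO after LPS (as were 0.312% of all genes), at 2929.5, 3703 and 3672 in KO and 5451, 5343 and 4669.9 in WT macrophages (-0.59 ± 0.099, adjusted p = 0.0296). *Fam162a*, a mitochondrial protein gene induced by HIF, was lower untreated, at 265, 298 and 315 in KO and 401, 426 and 446 in WT macrophages (-0.54 ± 0.086, adjusted p = 0.0432). Both were named after their values were seen. Of the other glycolysis genes 1 of 13 was apart below WT after LPS and 3 of 13 untreated, and of the HIF pathway regulators 2 and 1 of 13, against the same shares of all genes. Apart above WT were 2 and 0 of the other glycolysis genes and 1 and 1 of the regulators. Of 11 pentose phosphate genes 4 lay above and 2 below after LPS, and 2 and 2 untreated. In pyruvate and lactate handling 0 of 20 genes lay above and 2 below after LPS, and 1 and 5 of 19 untreated. Of 16 glycogen genes 2 lay above and 4 below after LPS, and 0 and 1 untreated.

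Whether LPS acted differently in KO and WT macrophages was tested with the interaction of genotype and LPS over all 12 libraries. Of the 38 genes 0 passed an adjusted p under 0.05, against 0.00787% of all 12711 genes, and 0 had an unadjusted p under 0.05, against 4.22%, by limma. DESeq2 and edgeR gave 0 genes at either threshold too. With the replicate block 0 passed the adjusted p, while *Slc2a6*, *Slc2a1* and *Pfkl* had an unadjusted p under 0.05 (3 of 38, against 7.28% of all genes). The largest differences in size were those of *Slc2a1* (0.30 ± 0.20) and *Slc2a6* (-0.30 ± 0.15), for which both adjusted p were 0.999. With 3 libraries per group the responses were not distinguishable, since the 95% interval of each difference held 0 without the block and no adjusted p passed with it. For *Hif1a* the difference in response was -0.032 with a 95% interval of -0.22 to 0.16.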

How the data were processed

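RNA-seq was analysed from 12 libraries of BMDMs in 4 groups (KO or WT, with LPS or untreated). Per the labels and the methods, the authors processed reads with bcl2fastq (2.17), Trimmomatic (0.39), STAR (2.7.4a) on GRCm38 with annotation release 100, featureCounts of Subread (2.0.1) and DESeq2 (1.32.0) in R (4.1.2). The deposited signal values are normalized counts, made by the authors by dividing the counts of a library by its size factor, with no log and no filter. Of the values 100% were whole reads after division by the smallest value of the library (tolerance 1e-06), so reads were recovered. The table holds 55487 gene models, 23524 of them without a read, and the kit does not mark strand.

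The members and gene lists were chosen with earlier results of these data known. For each comparison, limma (3.58.1) in R (4.3.3) was fitted with a trended variance to log2(normalized count + 1) of the 2 groups. Genes with a mean of at least 10 were tested, and p-values were adjusted over all of these after Benjamini-Hochberg. Calls required an adjusted p under 0.05 together with a log2 fold change of 1 or more in size, and for the interaction of genotype and LPS over all 12 libraries only the adjusted p. Fold changes are on this scale, which understates those of low genes, and ± is the standard error for a log2 fold change and the SD of 3 libraries for a level. The script was tested on simulated data. Depth was 19316691 to 24977356 reads in genes per library.

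Alternatives were pseudocounts of 0.5 and 5, filters at a mean of 0 or 50, scaling by upper quartile, quantile or library total, all 12 libraries in one fit, no variance trend, no fold threshold, the replicate number as a block, each library left out, and edgeR (4.0.16) and DESeq2 (1.42.0) on the recovered reads. Isozyme shares were also taken without length scaling and with the length of the longest coding transcript. Leaving out the *Xist*-bearing replicates was added after seeing the data. After subtraction of group means, libraries with the same number correlated between LPS and untreated with r = 0.292, 0.278 and 0.167 in KO and 0.331, 0.186 and 0.240 in WT, so these pairs of wells were treated as paired in the block, while between the genotypes r was -0.197 to 0.241. Near-identical copies were sought with BLAST+ (2.17.0) at 98% identity over 150 nt, and exon lengths and overlaps were taken from a GENCODE annotation of GRCm38. All 38 members were named, and from each other list up to 3 called genes with the largest change, of which some are not reported here.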

Additional observations from a re-analysis of the deposited data

How the results depend on the processing

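The 10 genes called higher after LPS kept their direction under every alternative run, in both genotypes, and so did the differences of the 12 genes with all KO libraries below all WT libraries in both conditions. Leaving out a library could not turn the sign of either set, since their groups did not overlap. The 10 genes were also chosen by a log2 fold change of 1 or more, while scaling moved the median of all genes by at most -0.72. Their kept direction was thus largely set by how they were chosen. Depth limits *Egln3*, *Epas1* and *Ldhb*, and, after LPS, *Ddit4* and *Ankrd37*, with few reads there, and 3 libraries per group limit every test. The cause of the changes below was not tested. Under upper quartile scaling, the log2 fold change after LPS in KO turned for *Aldoa* (-0.17), *Tpi1* (-0.18), *Gapdh* (-0.014), *Pgam1* (-0.18), *Eno1* (-0.066), *Pkm* (-0.14), *Ldha* (-0.040), *Ldhb* (-0.14) and *Arnt* (-0.20). Under quantile normalization, the log2 fold change after LPS in KO turned for *Aldoa* (-0.84), *Tpi1* (-0.76), *Gapdh* (-0.63), *Pgk1* (-0.40), *Pgam1* (-0.66), *Eno1* (-0.71), *Pkm* (-0.85), *Ldha* (-0.69), *Arnt* (-0.19) and *Bnip3* (0.056). Under library totals, the log2 fold change after LPS in KO turned for *Slc2a1* (-0.090), *Pfkl* (-0.27), *Aldoa* (-0.53), *Tpi1* (-0.55), *Gapdh* (-0.38), *Pgk1* (-0.13), *Pgam1* (-0.55), *Eno1* (-0.43), *Pkm* (-0.51), *Ldha* (-0.41), *Ldhb* (-0.50), *Slc16a3* (-0.12), *Arnt* (-0.57) and *Egln2* (-0.22). With DESeq2 it was 0.0012 for *Bnip3* in KO. Under upper quartile scaling, the log2 fold change after LPS in WT turned for *Slc2a1* (-0.024), *Pfkl* (-0.12), *Aldoa* (-0.18), *Aldoc* (-0.27), *Tpi1* (-0.18), *Gapdh* (-0.075), *Pgam1* (-0.21), *Eno1* (-0.14), *Pkm* (-0.13), *Ldha* (-0.11), *Ldhb* (-0.17) and *Arnt* (-0.032). Under quantile normalization, the log2 fold change after LPS in WT turned for *Slc2a1* (-0.14), *Pfkl* (-0.25), *Aldoa* (-0.86), *Aldoc* (-0.032), *Tpi1* (-0.87), *Gapdh* (-0.74), *Pgk1* (-0.57), *Pgam1* (-0.72), *Eno1* (-0.83), *Pkm* (-0.84), *Ldha* (-0.80), *Slc16a3* (-0.13) and *Arnt* (-0.037). Under library totals, the log2 fold change after LPS in WT turned for *Slc2a1* (-0.43), *Pfkl* (-0.52), *Aldoa* (-0.59), *Aldoc* (-0.67), *Tpi1* (-0.58), *Gapdh* (-0.48), *Pgk1* (-0.23), *Pgam1* (-0.61), *Eno1* (-0.55), *Pkm* (-0.53), *Ldha* (-0.51), *Ldhb* (-0.56), *Slc16a3* (-0.31), *Arnt* (-0.43), *Egln2* (-0.21) and *Ndrg1* (-0.039). With DESeq2, the fold change of KO over WT after LPS turned for *Egln2* (-0.0015). Without the *Xist*-bearing libraries, the fold change of KO over WT after LPS turned for *Egln2* (-0.021). Under library totals, the fold change of KO over WT in untreated macrophages turned for *Pfkp* (-0.0091). Without the *Xist*-bearing libraries, the fold change of KO over WT in untreated macrophages turned for *Hk1* (0.0044), *Pfkm* (-0.022) and *Slc16a1* (0.027). Under library totals the interaction of *Hif1a* was 0.0069. With each library left out, the fold change after LPS in KO ranged over -0.034 to 0.020 for *Pdha1*, -0.088 to 0.0090 for *Gpi1*, -0.083 to 0.0041 for *Aldoc*, -0.16 to 0.047 for *Pdk1* and -0.10 to 0.041 for *Bnip3*. With each library left out, the fold change after LPS in WT ranged over -0.038 to 0.026 for *Pdha1*. With each library left out, the fold change of KO over WT after LPS ranged over -0.034 to 0.11 for *Slc2a6*, -0.047 to 0.099 for *Egln2*, -0.023 to 0.034 for *Hif1a*, -0.18 to 0.067 for *Slc2a1*, -0.20 to 0.018 for *Ldhb*, -1.05 to 0.20 for *Ddit4*, -0.0095 to 0.071 for *Hk1*, -0.14 to 0.22 for *Pdk3*, -0.11 to 0.11 for *Slc16a1* and -0.20 to 0.079 for *Pfkm*. With each library left out, the fold change of KO over WT in untreated macrophages ranged over -0.067 to 0.0056 for *Hk1*, -0.18 to 0.066 for *Slc16a1*, -0.027 to 0.038 for *Pfkp*, -0.075 to 0.036 for *Arnt*, -0.25 to 0.033 for *Ldhb* and -0.0012 to 0.089 for *Pfkfb4*. With each library left out, the value of the interaction ranged over -0.27 to 0.0068 for *Pfkm*. 

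Genes called after LPS in KO numbered 5 higher and 8 lower under library totals (against 11.4% and 36.3% of all genes), and 24 (18 higher) with no fold threshold (against 72.1%, 36.3% higher). In WT they numbered 6 higher and 7 lower under upper quartile scaling (against 13.7% and 23.9%), 6 higher under quantile normalization (against 14.8%), 4 higher and 8 lower under library totals (against 10.9% and 37.8%), and 28 (19 higher and 9 lower) with no fold threshold (against 36.7% and 36.6%). Of untreated KO against WT macrophages, 0 genes were called with upper quartile scaling, library totals, a filter at a mean of 50, all 12 libraries in one fit, no variance trend, edgeR or the *Xist*-bearing libraries left out, 0 to 0 with any library left out, and 2 with no fold threshold (against 0.538% of all genes). At the adjusted p alone DESeq2 gave 10 genes there and no filter 6 (against 2.62% and 0.705%). After LPS, genes with all KO below all WT libraries numbered 7 under quantile normalization and 9 under library totals (against 7.85% and 5.74% of all genes). Genes with all KO above all WT numbered 1 after LPS under quantile normalization (against 8.81%), 5 in either condition without the *Xist*-bearing libraries (against 19.1% after LPS and 18.5% untreated), and 2 to 5 after LPS (against 12.1 to 15.7%) and 3 to 5 untreated (against 11.6 to 14.7%) with 1 library left out.

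With the replicate number as a block, which pairs LPS with untreated wells of a genotype, 10 genes were called higher and 4 lower in KO and in WT. Between the genotypes the numbers did not pair the libraries, and the block gave 0 calls after LPS and 1 untreated, with 6 untreated genes at the adjusted p alone against 2 without it. The interaction gave 0. Under the block no gene lost or gained a call that requires the fold, while at the adjusted p alone 30 genes passed in KO and 34 in WT (against 75.3% of all genes in each), and 24 and 28 without it.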
